A study of Mus musculus with 3 samples.

Results

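Skin mast cells labelled as descendants of late erythro-myeloid progenitors (late EMP) were compared with those labelled as descendants of early ones (early EMP), with 1 RNA-seq library on each side. The comparison covers the genes that have a symbol in the deposited table and stand at 1 FPKM or more in at least 1 of the 2 libraries. FPKM counts fragments relative to transcript length and to library size. These were 11181 of 17613 rows with a symbol, in a table of 20677 rows whose other 3064 rows are unnamed regions. The other 6432 rows with a symbol lay under 1 FPKM in both libraries. Differences are given as log2((FPKM + 1) / (FPKM + 1)), late over early EMP, which shrinks the differences of low genes; a gene is called higher or lower from 2-fold upward on that scale. With 1 library a side no difference has a replicate check, and no test was made.

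Both libraries came from C57BL/6xCD1xFVB mice 1 week after birth that carried an EYFP reporter and received 4'OHT, the active form of tamoxifen, at embryonic day 8.5. The early EMP library came from Csf1rCre/EYFP mice, in which the Csf1r promoter drives the inducible recombinase, and the late EMP library from Runx1Cre/EYFP mice. The fetal HSC library, whose level is printed beside the other values, came from Runx1Cre/EYFP mice pulsed at embryonic day 9.5. The driver line therefore differs between the libraries compared and is the same in the late EMP and fetal HSC libraries, so that driver line and origin cannot be told apart. The pulse labels what expresses the driver on that day, which need not be progenitors of 1 wave only. The labels used here give neither the number nor the sex of the animals behind a library. Where 3 values follow a gene, they are FPKM in the order early EMP, late EMP and fetal HSC, and the fetal HSC value shares its early EMP counterpart with the main comparison.

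Erythro-myeloid progenitors arise in the yolk sac before definitive haematopoietic stem cells and give rise to tissue-resident myeloid cells, among them mast cells. Mast cells settle in the skin before birth, mature there and keep a capacity to divide. Connective tissue mast cells store chymases, tryptases, carboxypeptidase A3, histamine and heparin in granules, and need the receptor Kit to survive. A cell that enters division first turns on the genes of DNA replication under E2F factors and later those of mitosis, many of which carry the promoter elements CHR and CCAAT.

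All 17 measured genes of mast cell identity stood at 1 FPKM or more in both libraries. All 17 also lay within 2-fold between them (median -0.17), as did 87.8% of all genes. At a mean of 100 to 1000 FPKM 2.01% of all genes were higher and 1.17% lower. Likeness of 2 libraries does not show which cells either holds. Ms4a2, which encodes the IgE receptor's beta chain, was at 214, 245 and 207 FPKM. Srgn, the granule proteoglycan serglycin, was at 4219, 4706 and 3540 FPKM. Mitf, a transcription factor of mast cells and melanocytes, stood at 30.2, 25.8 and 23.6 FPKM. The depth implied by the steps between low values was 15.4, 15.7 and 17.4 M fragments, an imprecise estimate. Sex-linked RNAs differed between the libraries compared, with the X-inactivation RNA Xist at 25.6 FPKM in early EMP and 0.53 in late EMP. Of the genes on the Y chromosome, Ddx3y stood at 20.7 FPKM in early and 38.5 in late EMP, so both libraries held Y-linked RNA. In fetal HSC Xist was at 52.0 and Ddx3y at 0.32 FPKM, so that late EMP and fetal HSC differed in these RNAs too. Whether the sex of the animals has a part in the differences below was not tested.

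In the late EMP library 870 of the 11181 genes (7.78%) were at least 2-fold higher and 489 (4.37%) at least 2-fold lower. At 4-fold, 123 (1.1%) were higher and 49 (0.438%) lower. The remaining 87.8% lay within 2-fold, around a median of 0.05, with the 5th and 95th percentiles at -0.95 and 1.18. Genes that passed the filter through 1 library alone made up much of this. Of 9692 genes at 1 FPKM or more in both libraries, 431 (4.45%) were higher and 222 (2.29%) lower. Of 816 genes that reached 1 FPKM in the late EMP library only, 439 (53.8%) were higher, and of 673 that reached it in the early EMP library only, 267 (39.7%) were lower. Among 197 genes just inside the filter, whose larger value lay from 1 to under 1.1 FPKM, 22 were higher and 18 lower; none was among the 203 just outside it, from 0.9 to under 1 FPKM, where this scale allows no difference of 2-fold.

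**Figure D1:**
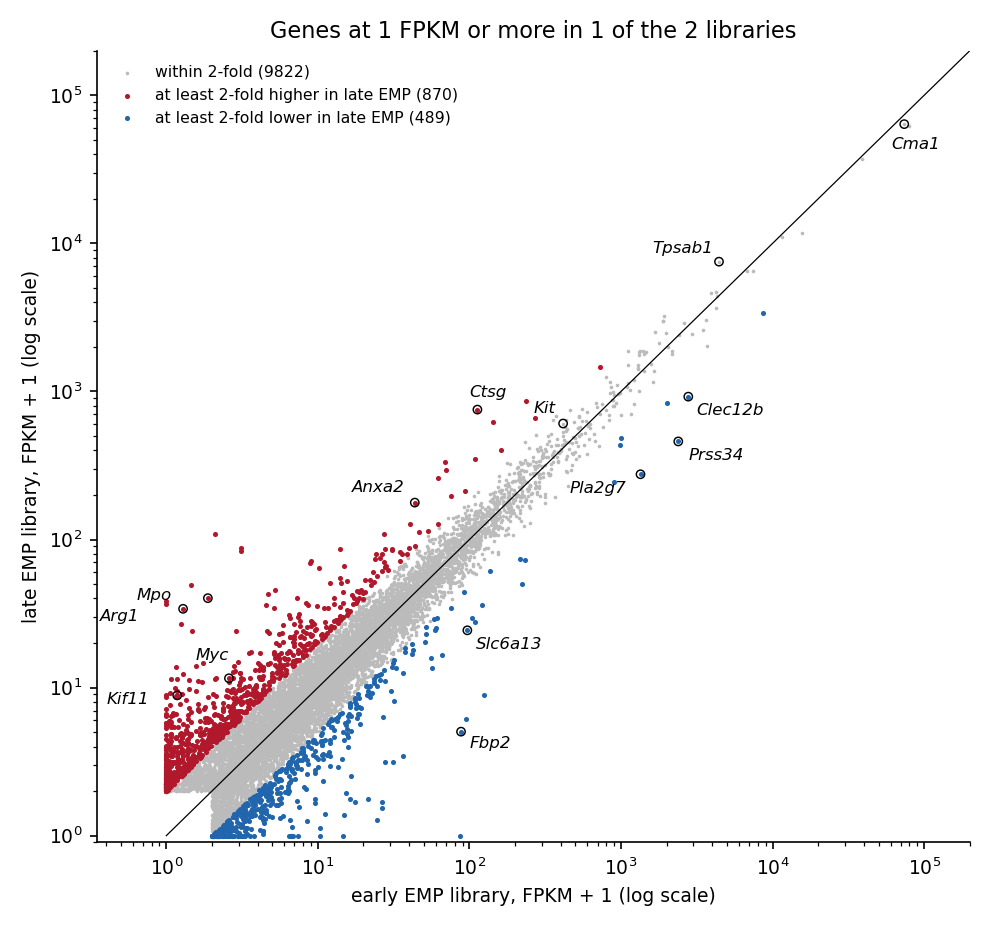
Each point is a gene, with FPKM + 1 in the early EMP library on the x axis and in the late EMP library on the y axis, both on log scales. Red points (870) are at least 2-fold higher in late EMP, blue points (489) at least 2-fold lower and grey points (9822) lie within 2-fold; the line marks equal values, and circles mark genes named in the text.

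The share of genes past 2-fold fell with the level. Below a mean of 2 FPKM, 17.4% were higher and 11% lower, and between 20 and 100 FPKM 3.31% were higher and 1.3% lower. Of the 55 genes at a mean of 1000 FPKM or more 1 was higher (1.82%) and 4 were lower (7.27%). These are too few to read a direction from. In FPKM, gains over all genes with a symbol summed to 60394 and losses to -83663. The 10 largest losses held 54.5% of the summed loss and the 10 largest gains 18% of the summed gain. The largest loss was that of the tryptase Tpsb2 (79281 FPKM in early EMP and 62101 in late EMP), which lay within 2-fold.

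**Figure D2:**
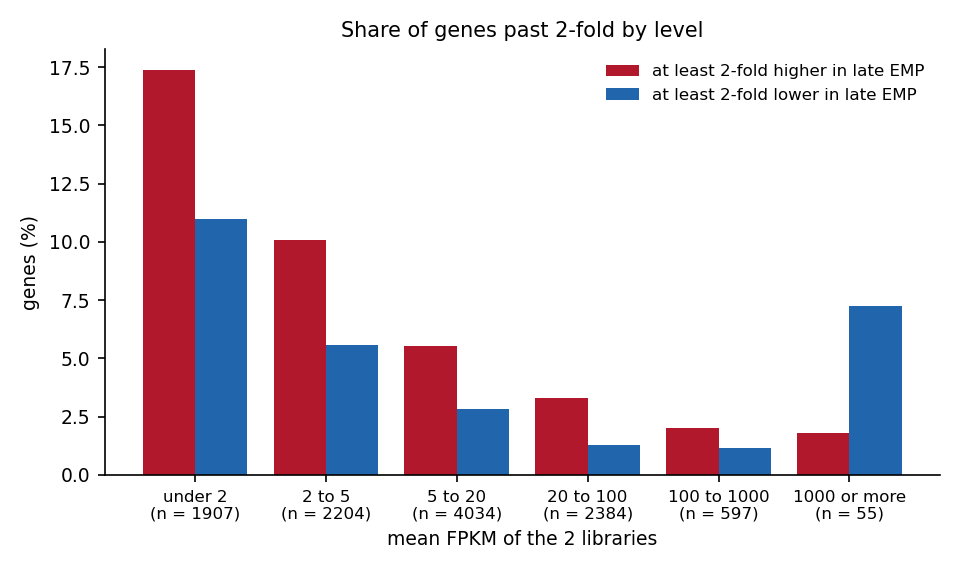
Bars give the percentage of genes at least 2-fold higher (red) or lower (blue) in the late EMP library, by the mean FPKM of the 2 libraries on the x axis, with the number of genes under each bin. The higher share falls from 17.4% below 2 FPKM to 1.82% (1 gene) at 1000 FPKM or more. The lower share there is 7.27% (4 genes).

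Genes of cell division were higher as a group in the late EMP library. In 9 lists that follow division from cyclins to repair, 92 of the 203 distinct genes kept (45.3%) were higher by 2-fold or more, none was lower, beside 7.78% and 4.37% of all genes. Their median was 0.91, and 7 further members were below 1 FPKM in both libraries. Of the 203, 47 reached 1 FPKM in the late EMP library only, and 32 of these were higher. Among the 155 at 1 FPKM or more in both libraries, 60 (38.7%) were higher and none lower, beside 4.45% and 2.29% of all such genes. In bulk RNA, fewer cells of a type and less RNA per cell cannot be told apart, so these levels do not tell how many cells were dividing.

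The promoters of 3 mitotic genes are shown, chosen from members of the 3 mitotic lists counted below the sequences. Among the members' promoters ranked that hold CHR and CCAAT letters together, they belong to the genes with the 3 largest differences. Promoters of genes outside these lists were not ranked. They are RefSeq sequences of GRCm38.p6, 250 bases before to 50 after the start of the gene, 5′ to 3′ on its strand. Capitals mark CHR (TTTGAA or TTCGAA) and CCAAT, each on either strand.
Kif11, chr19:37376132-37376431, + strand: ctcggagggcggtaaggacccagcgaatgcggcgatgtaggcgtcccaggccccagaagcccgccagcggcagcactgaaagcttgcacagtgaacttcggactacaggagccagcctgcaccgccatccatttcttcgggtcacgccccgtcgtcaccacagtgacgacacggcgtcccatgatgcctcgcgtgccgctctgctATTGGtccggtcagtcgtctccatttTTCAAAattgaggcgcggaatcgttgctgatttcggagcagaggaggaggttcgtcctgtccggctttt
Aurka, chr2:172370521-172370820, - strand: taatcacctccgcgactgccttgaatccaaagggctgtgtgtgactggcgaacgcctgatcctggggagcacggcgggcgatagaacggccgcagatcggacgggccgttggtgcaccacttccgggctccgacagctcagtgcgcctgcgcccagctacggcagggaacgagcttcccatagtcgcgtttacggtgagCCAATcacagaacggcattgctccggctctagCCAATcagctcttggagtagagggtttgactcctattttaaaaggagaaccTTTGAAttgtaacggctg
Spc25, chr2:69206164-69206463, - strand: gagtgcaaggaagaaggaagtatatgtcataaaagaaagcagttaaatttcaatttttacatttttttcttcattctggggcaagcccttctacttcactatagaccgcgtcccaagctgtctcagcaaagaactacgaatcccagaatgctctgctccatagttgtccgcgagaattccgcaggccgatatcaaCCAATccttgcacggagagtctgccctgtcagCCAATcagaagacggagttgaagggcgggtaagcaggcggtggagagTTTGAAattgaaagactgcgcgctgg
Of 80 kept members of the kinetochore, spindle and chromosome lists, 69 had a promoter in the table, with 77 promoters between them. CHR letters stood in 52 of the 77 (67.5%), beside 19.2% of all 32851 promoters of the table and 14.3% of the promoters of genes kept. CCAAT stood in 70.1%, beside 37.4% and 38.5%. CHR letters were in 70.5% of the promoters of higher genes and 63.6% of those within 2-fold, and CCAAT in 77.3% and 60.6%. E2F letters (TTTGGCGC, TTTCGCGC, TTTCCCGC or TTTGCCGC) stood in 23.5% of 68 promoters of the licensing, fork and nucleotide lists, beside 2.26% and 3.97%. There the share was 34.5% for higher genes and 15.4% for those within 2-fold. A match is a stretch of letters and does not show that a factor binds there.

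Mitotic genes had the largest list medians among the division lists, over all members kept. Over members at 1 FPKM or more in both libraries the spindle list stayed highest, at 1.48. Origin licensing and firing (0.91) then stood above chromosome condensation and cohesion (0.90) and kinetochore genes (0.81). In the list of spindle kinesins and cytokinesis 18 of 27 genes were higher and none lower (median 1.45). Kif11, the motor that pushes spindle poles apart, stood at 0.18, 7.86 and 9.74 FPKM. Aurka, a kinase of the spindle poles, was at 1.82, 11.9 and 8.94 FPKM, and Aurkb, a kinase of the chromosomal passenger complex, at 1.98, 13.9 and 12.7 FPKM. Nusap1, a spindle microtubule protein, was at 1.13, 10.6 and 8.52 FPKM, and Racgap1, which acts in the cleavage furrow, at 4.53, 18.4 and 15.8 FPKM. In each of these 5 genes the early EMP library was the lowest of the 3. Of the 2 members below 0, both within 2-fold, Kif23, a motor of the central spindle, was the most abundant gene of the list, at 141, 124 and 139 FPKM, and Cep55, which acts in abscission, was low, at 1.78 FPKM in early EMP and 0.74 in late EMP.

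Kinetochore genes, which tie chromosomes to the spindle, were higher in 17 of 31 cases and lower in none (median 1.07). Spc25, a subunit of the microtubule-binding Ndc80 complex, was at 5.56, 28.6 and 26.2 FPKM, and Nuf2, of the same complex, at 0.58, 8.47 and 11.3 FPKM. Cenph, of the inner kinetochore, stood at 0.42, 10.2 and 5.33 FPKM. Many members were low: 13 of the 31 reached 1 FPKM in the late EMP library only, and of the 18 at 1 FPKM or more in both, 7 were higher. Zwint, an outer kinetochore protein, was the most abundant member and lay within 2-fold, at 66.2, 61.8 and 69.7 FPKM.

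Chromosome condensation and cohesion had 11 of 22 genes higher and none lower (median 1.01). Top2a, the topoisomerase that untangles replicated DNA, was at 4.33, 18.96 and 18.54 FPKM, and the proliferation marker Mki67 at 2.75, 8.72 and 9.62 FPKM. Smc2, a core subunit of condensin, was at 2.50, 9.29 and 8.92 FPKM. Esco2, which acetylates cohesin during replication, was at 0.07, 3.89 and 1.00 FPKM, so that here the late EMP library stood above both others. H2afz, a histone variant that is not restricted to dividing cells, lay within 2-fold at 697, 786 and 945 FPKM.

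Among cyclins and their kinases 9 of 18 were higher and none lower (median 0.92). Ccnb1, the cyclin of mitotic entry, stood at 4.88, 25.5 and 29.7 FPKM, Cdk1, its kinase, at 2.23, 10.4 and 10.5 FPKM, and Ccna2, the cyclin of S and G2 phase, at 3.83, 13.6 and 8.18 FPKM. Ccnd3, a cyclin of G1, stood above both other libraries in late EMP, at 37.6, 78.5 and 41.2 FPKM. Cdk2, which acts at the entry to S phase, was at 66.2, 53.3 and 49.0 FPKM, and Cdk4, the partner of D cyclins, at 90.7, 118 and 102 FPKM; both lay within 2-fold. The E2F and DREAM regulators that switch these genes had 4 higher members of 17 (23.5%, beside 7.78% of all genes), with none lower (median 0.26). Of these 4, 2 passed the filter through the late EMP library only. Over the 15 at 1 FPKM or more in both libraries 2 were higher (13.3%, beside 4.45% of all such genes), with a median of 0.22. The mitotic transcription factor Foxm1 stood at 0.35, 3.15 and 1.53 FPKM and the pocket protein Rbl1 at 5.45, 16.7 and 11.4 FPKM. Lin37, a DREAM subunit, was at 27.1, 14.9 and 21.1 FPKM, below the other 2 libraries but within 2-fold.

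Of the replication lists, from licensing to nucleotides, each had higher and no lower members, although most genes of each lay within 2-fold. Origin licensing and firing had 9 of 24 genes higher and none lower (median 0.93). Cdt1, which loads the replicative helicase, stood at 0.15, 7.74 and 6.56 FPKM, and the helicase subunits Mcm3, Mcm5 and Mcm7 at 51.8, 15.8 and 22.8 FPKM in late EMP against 14.7, 4.12 and 6.18 in early EMP. Among fork polymerases and clamp genes 9 of 24 were higher and none was lower (median 0.65), with the ligase Lig1 at 3.14, 13.2 and 12.7 FPKM and the histone chaperone Asf1b at 7.33, 36.1 and 42.1 FPKM. The most abundant members lay within 2-fold in opposite directions, the clamp loader subunit Rfc2 at 471, 317 and 386 FPKM and the sliding clamp Pcna at 93.6, 143 and 151 FPKM, and the list summed to 816 FPKM in early EMP and 864 in late EMP. Nucleotide synthesis had 9 of 21 higher and none lower (median 0.85), among them both subunits of ribonucleotide reductase, Rrm1 at 6.77, 21.3 and 22.2 FPKM and Rrm2 at 3.35, 12.9 and 19.4 FPKM.

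Homologous recombination and Fanconi repair had 6 of 19 genes higher and none lower (median 0.66), but 8 of the 19 reached 1 FPKM in the late EMP library only. Of the 11 at 1 FPKM or more in both, 2 were higher, with a median of 0.25. Chek1, the replication checkpoint kinase, stood at 0.24, 3.33 and 1.20 FPKM. The replication-dependent histone genes of the Hist1 cluster on chromosome 13 summed to 155, 518 and 554 FPKM. Of the 29 kept 23 were higher (79.3%, beside 7.78% of all genes) and none lower. Hist1h2ao alone was at 61.1, 260 and 327 FPKM. These genes are near-identical, so the value of a single member is uncertain.

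Inhibitors of division and p53 targets had counts near the share of all genes. Of 17 such genes (median 0.13) 1 was higher and 1 lower (5.88% each), beside 7.78% and 4.37% of all genes. Cdkn1a, the inhibitor p21, stood at 215, 222 and 315 FPKM. Cdkn1b, the inhibitor p27, was higher at 3.57, 8.5 and 15.8 FPKM, and Cdkn2c, an inhibitor of the D cyclin kinases, lower at 5.19, 1.81 and 4.0 FPKM.

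**Figure D3:**
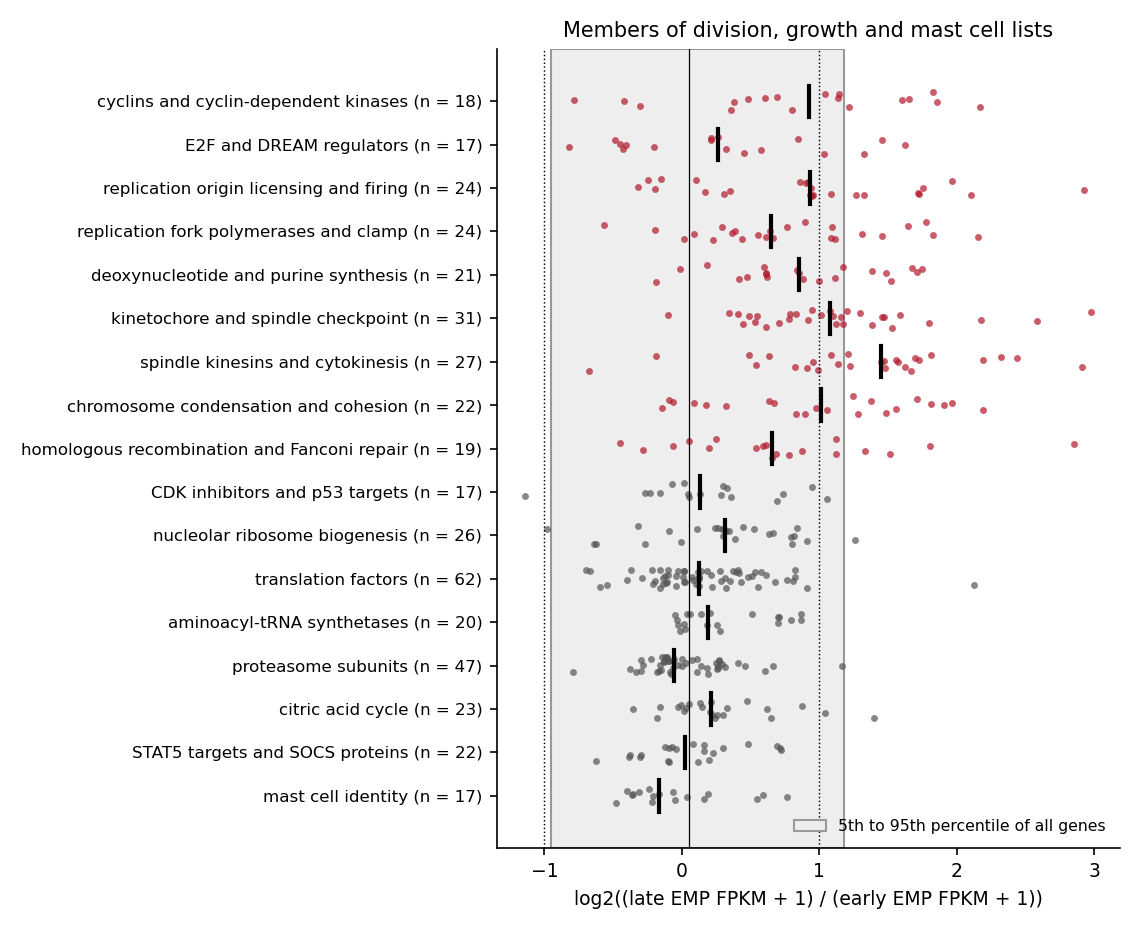
Points are the kept members of 17 gene lists, by log2((late EMP FPKM + 1) / (early EMP FPKM + 1)) on the x axis; short bars are list medians, the grey band spans the 5th to 95th percentile of all genes and dotted lines mark 2-fold. The 9 division lists (red) have medians from 0.26 to 1.45 and no member past 2-fold lower. The 17 mast cell identity genes all lie within 2-fold, as do 87.8% of all genes.

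Genes of growth, from protein synthesis to splicing, nuclear transport and the proteasome, differed less than those of division. Of 334 genes in 9 lists 12 were higher and 1 lower (3.59% higher, median 0.13), beside 7.78% and 4.37% of all genes. Among all genes at a mean of 20 to 100 FPKM 3.31% were higher and 1.3% lower. Of the 325 at 1 FPKM or more in both libraries 3.08% were higher, beside 4.45% of all such genes. None of 20 aminoacyl-tRNA synthetases lay past 2-fold, 1 of 62 translation factors, 1 of 47 proteasome subunits and 1 of 26 genes of ribosome biogenesis. Myc, the transcription factor of growth, stood at 1.59, 10.6 and 5.26 FPKM. Kpna2, a nuclear import receptor also tied to dividing cells, was at 26.7, 85.2 and 109 FPKM, and Nup107, a nuclear pore subunit, at 1.75, 7.49 and 11.6 FPKM. Npm1, the abundant nucleolar chaperone, lay within 2-fold at 96.4, 168 and 145 FPKM.

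The granule proteases differed gene by gene. Of 18 granzyme and mast cell protease genes 14 were kept, 4 of them higher (28.6%) and 1 lower (7.14%), beside 7.78% and 4.37% of all genes, with a median of 0.04. Ctsg, the granule protease cathepsin G, stood at 112, 753 and 783 FPKM. Mcpt2 and Mcpt1, chymases typical of mucosal mast cells, were at 7.62, 35.2 and 60.1 FPKM and at 0.07, 10.4 and 4.36 FPKM, and Gzmb, granzyme B, at 1.79, 13.1 and 27.0 FPKM. All 4 were lowest in the early EMP library and stood far under the connective tissue proteases in level. Prss34, a tryptase of basophils and mast cells, was lower at 2386, 459 and 989 FPKM, while Mcpt8, the basophil protease, was at 14.5, 17.5 and 35.9 FPKM. Tpsab1, a tryptase, had the largest gain in FPKM, at 4431, 7524 and 3608 FPKM, within 2-fold; its paralog Tpsb2 moved the other way, and reads of such paralogs can be split differently by the estimate. The same holds for Mcpt1, Mcpt2 and their neighbours.

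Of 11 markers of granulocyte precursors 5 were kept. In late EMP 4 of them were higher (80%) and 1 lower (20%), beside 7.78% and 4.37% of all genes. Of the higher ones 3 were primary granule proteins. Mpo, Elane and Prtn3, the primary granule proteins of that lineage, summed with 8 other markers to 4.14, 56.9 and 134 FPKM. Elane, neutrophil elastase, was at 0.42, 8.73 and 34.7 FPKM, and Prtn3, proteinase 3, at 0.08, 5.38 and 14.4 FPKM. Of the others 6 lay below 1 FPKM in both libraries and S100a8, a calcium-binding protein of neutrophils, was lower at 1.30, 0.00 and 28.9 FPKM. All 5 kept members passed the filter through 1 library alone. The 4 higher ones passed through late EMP, where 53.8% of all genes passing that way were higher. The lower one passed through early EMP, where 39.7% of such genes were lower.

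Of 20 genes of type 2 immunity and innate lymphoid cells 8 were higher (40%, beside 7.78% of all genes) and none was lower (median 0.80), but 7 of the 8 passed through the late EMP library only. Of the 11 at 1 FPKM or more in both libraries 1 was higher (9.09%, beside 4.45%), with a median of 0.08. Il5, the eosinophil growth factor, stood at 0.56, 13.1 and 32.3 FPKM. Areg, the growth factor amphiregulin, was at 0.06, 4.94 and 5.83 FPKM, Rora, a transcription factor of innate lymphoid cells, at 0.24, 3.06 and 3.02 FPKM, and Il2ra, the high-affinity chain of the interleukin 2 receptor, at 0.08, 3.89 and 2.55 FPKM. The abundant members differed little. Il4 was at 837, 692 and 856 FPKM, Il13 at 80.8, 61.4 and 56.4 FPKM and Il1rl1, the receptor of interleukin 33, at 472, 380 and 268 FPKM. T cell receptor genes gave no shared direction, with Cd3d at 0.22, 0.16 and 0.39 FPKM, Cd3g at 1.55, 5.36 and 12.02 FPKM and Cd3e higher in the early EMP library, at 13.5 FPKM against a listed 0.

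Of 9 genes of arginine, urea and creatine metabolism 2 were higher (22.2%, beside 7.78% of all genes) and none was lower (median 0.26). Both passed through the late EMP library only, and none of the 7 at 1 FPKM or more in both libraries was higher. They were the arginase Arg1, at 0.29, 33.0 and 28.8 FPKM, and Ass1, which rebuilds arginine from citrulline, at 0.13, 4.43 and 3.26 FPKM. Asl, the next enzyme of that path, lay within 2-fold at 36.5, 27.4 and 40.1 FPKM, and Oat, which breaks down ornithine, at 67.9, 70.0 and 83.2 FPKM. Of serine synthesis, Phgdh, the entry enzyme, was higher at 5.54, 20.8 and 11.3 FPKM, and so was Psat1, the next enzyme, at 9.94, 21.0 and 17.7 FPKM. Their list, of serine, asparagine and ATF4 target genes, had 3 of 17 higher (17.6%, beside 7.78%) and none lower. Its median was 0.23, with 9 members above 0 and 8 below. Over the 15 at 1 FPKM or more in both libraries 2 were higher (13.3%, beside 4.45% of all such genes), with a median of -0.09. Its abundant member Slc3a2 was at 499, 390 and 409 FPKM, within 2-fold. Of 14 lipid genes 4 were higher (28.6%, beside 7.78% of all genes) and none was lower (median 0.48), with the desaturase Scd2 at 4.69, 16.2 and 8.21 FPKM. Acly, which supplies acetyl-CoA to that path, was at 39.3, 40.0 and 29.5 FPKM. The sterol-response letters TCACNCCAC stood in 0 of 13 promoters of that list, beside 1.24% of all promoters.

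Several calcium-binding proteins were higher. S100a10, the partner of annexin A2, stood at 143, 616 and 407 FPKM, and Anxa2, annexin A2 itself, at 42.6, 177 and 173 FPKM. S100a6 was at 11.1, 49.9 and 39.3 FPKM and S100a11 at 60.8, 127 and 137 FPKM. Anxa2 was the 1 annexin of 8 past 2-fold, and Lgals3, a galectin at 93.0, 213 and 186 FPKM, the 1 galectin of 8. Each is 12.5% of its list, beside 7.78% of all genes. The S100 genes were named here after their values were seen. Among surface proteins Ly6e stood at 14.0, 64.8 and 71.9 FPKM, Cd52, a small leukocyte antigen, at 3.69, 41.8 and 89.7 FPKM, and Il5ra, the interleukin 5 receptor, at 4.76, 22.47 and 12.99 FPKM. Kcnn4, the calcium-activated potassium channel of mast cells, was at 0.65, 5.94 and 3.62 FPKM, and Ltb, lymphotoxin beta, at 1.60, 9.96 and 7.52 FPKM. In each of these the early EMP library had the lowest value.

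In the other direction the genes lower in late EMP were of mixed function. Pla2g7, a secreted phospholipase that inactivates platelet-activating factor, stood at 1344, 275 and 186 FPKM, and Clec12b, an inhibitory lectin receptor, at 2778, 921 and 548 FPKM. Of 26 C-type lectin genes kept 7 were lower (26.9%, beside 4.37% of all genes) and 4 higher (15.4%, beside 7.78%), with a median of -0.50. Of the 16 at 1 FPKM or more in both libraries 6 were lower (37.5%, beside 2.29%) and none higher (beside 4.45%). The lower ones included 3 Klra genes, near-identical receptors whose family summed to 372 and 93.0 FPKM in early and late EMP, and Mgl2 at 231 and 72.0 FPKM. Clec10a, the close relative of Mgl2, was at 440, 285 and 280 FPKM, within 2-fold. Cd300lf, an inhibitory lipid receptor, was at 25.8, 5.37 and 9.61 FPKM.

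Among metabolic and transport genes on the lower side, Fbp2, the fructose bisphosphatase known from muscle, stood at 87.0, 4.04 and 0.81 FPKM and Fbp1, the liver isoform, at 5.46, 1.00 and 1.40 FPKM. The 2 GABA and betaine carriers Slc6a13 and Slc6a12 were at 95.9, 23.4 and 18.8 FPKM and at 31.0, 7.15 and 5.15 FPKM. Over all 177 solute carriers kept, 13 were higher (7.34%) and 9 lower (5.08%), near the 7.78% and 4.37% of all genes (median 0.08). Among the 151 at 1 FPKM or more in both libraries 3 were higher (1.99%, beside 4.45% of all such genes) and 5 lower (3.31%, beside 2.29%). Glucocorticoid-induced genes had none of 13 higher and 3 lower (23.1%, beside 4.37% of all genes; median -0.33), namely Pik3ip1 at 58.9, 24.4 and 22.4 FPKM, Klf9 at 3.86, 1.1 and 1.5 FPKM and Il1r2 at 5.93, 1.64 and 7.77 FPKM. Tsc22d3, an abundant gene of the same list, was at 178, 190 and 122 FPKM, within 2-fold. Of 263 zinc finger genes named Zfp 19 were lower (7.22%, beside 4.37% of all genes) and 9 higher (3.42%, beside 7.78%), with a median of -0.06 and Zfp949 as the most different, at 93.7, 5.12 and 3.73 FPKM. Long non-coding RNAs were the gene class with more lower than higher members among those of over 100 genes, at 66 of 366 (18%) against 33 (9.02%), while protein-coding genes were at 3.76% and 7.65%. The lncRNA 1500011B03Rik stood at 107, 26.7 and 20.1 FPKM.

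**Figure D4:**
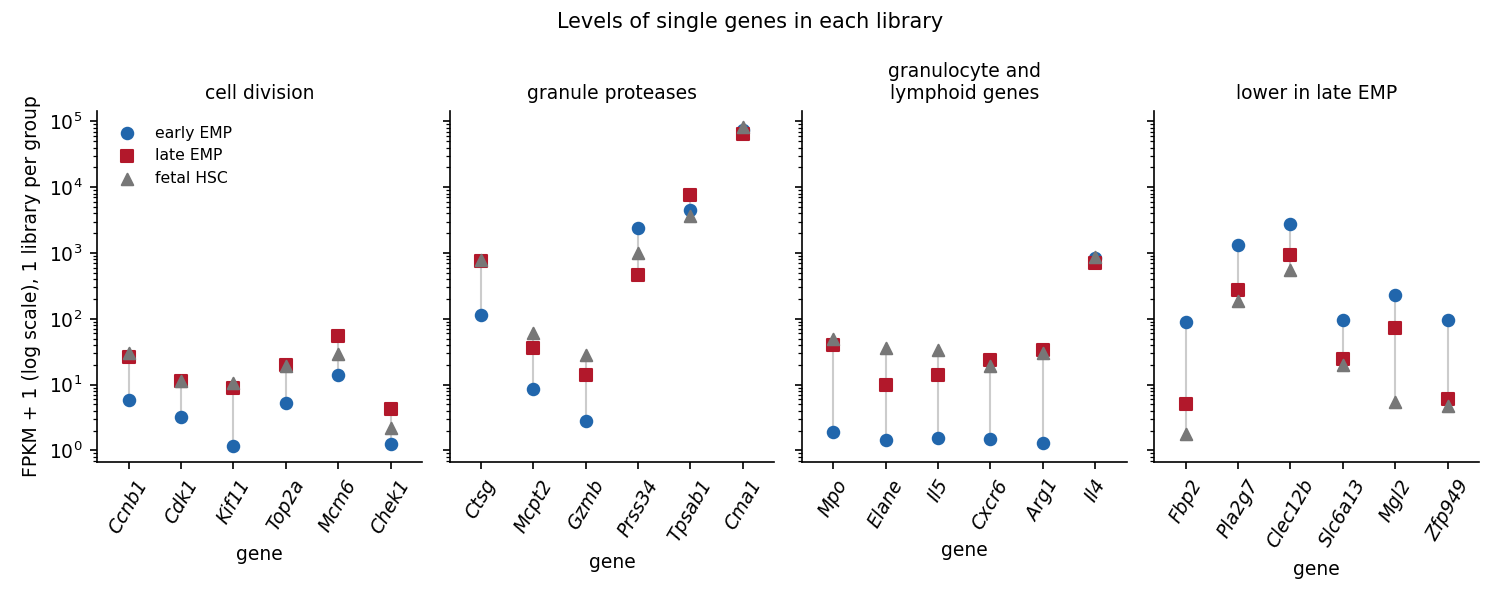
FPKM + 1 on a log scale for 24 genes in the early EMP (circles), late EMP (squares) and fetal HSC (triangles) libraries, 1 library each, joined by grey lines per gene. Kif11 runs from 0.18 FPKM in early EMP to 7.86 in late EMP and Ctsg from 112 to 753, and Pla2g7 from 1344 to 275, while the 3 values of Cma1 and of Il4 lie close together.

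Markers of other cell types were read because a sort can carry other cells or their RNA. Fibroblast markers summed to 1.94 FPKM in early EMP and 12.9 in late EMP, and 4 of 10 reached 1 FPKM, with Sparc at 3.57 and Col1a1 at 3.0 FPKM in late EMP; Dcn and Lum were listed at 0 in early EMP. Melanocyte markers summed to 1.66 and 14.2 FPKM, with 4 of 8 kept, Pmel highest at 6.4 FPKM and Sox10 at 0.00 and 0.05 FPKM. Keratinocyte markers summed to 5.40 and 8.67 FPKM and endothelial markers to 11.2 and 17.7 FPKM, where the endothelial cadherin Cdh5 was at 0.02 and 0.00 FPKM. Dendritic and Langerhans cell markers summed to 28.2 and 175 FPKM, and to 1301 in fetal HSC. Of these 11 markers 5 were kept, 4 of them higher (80%) and 1 lower (20%), beside 7.78% and 4.37% of all genes. The other 6 lay below 1 FPKM in both libraries. Most of each sum came from the antigen presentation genes Cd74, H2-Ab1 and H2-Aa. These stood at 12.9, 9.11 and 1.87 FPKM in early EMP and at 84.8, 63.2 and 23.0 FPKM in late EMP. The 1 other higher marker and the lower one each passed the filter through 1 library alone. Macrophage markers (median -0.50) had 4 of 17 lower (23.5%) and 2 higher (11.8%), beside 4.37% and 7.78% of all genes. Both higher ones passed the filter through the late EMP library only. Among the 14 at 1 FPKM or more in both libraries 3 were lower (21.4%, beside 2.29% of all such genes) and none higher (beside 4.45%). Macrophage markers past 2-fold included Cd68 at 17.8 and 6.44 FPKM, F13a1 at 8.78 and 3.25 FPKM and Cd163 at 0.02 and 1.57 FPKM. Of the erythroid list, the haemoglobin genes Hba-a1 and Hba-a2 summed to 154 FPKM in early EMP and 10.1 in late EMP, while Car1, a carbonic anhydrase of red cell precursors, stood at 0.25 and 25.9 FPKM and Tfrc, the transferrin receptor, at 1.98 and 8.57 FPKM; Alas2, which makes haem in red cells, was at 0.00 and 0.04 FPKM. B cell markers other than Cd79b lay under 1 FPKM in both. The part of such cells in the differences of division, granulocyte, lymphoid and antigen presentation genes was not tested.

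**Figure D5:**
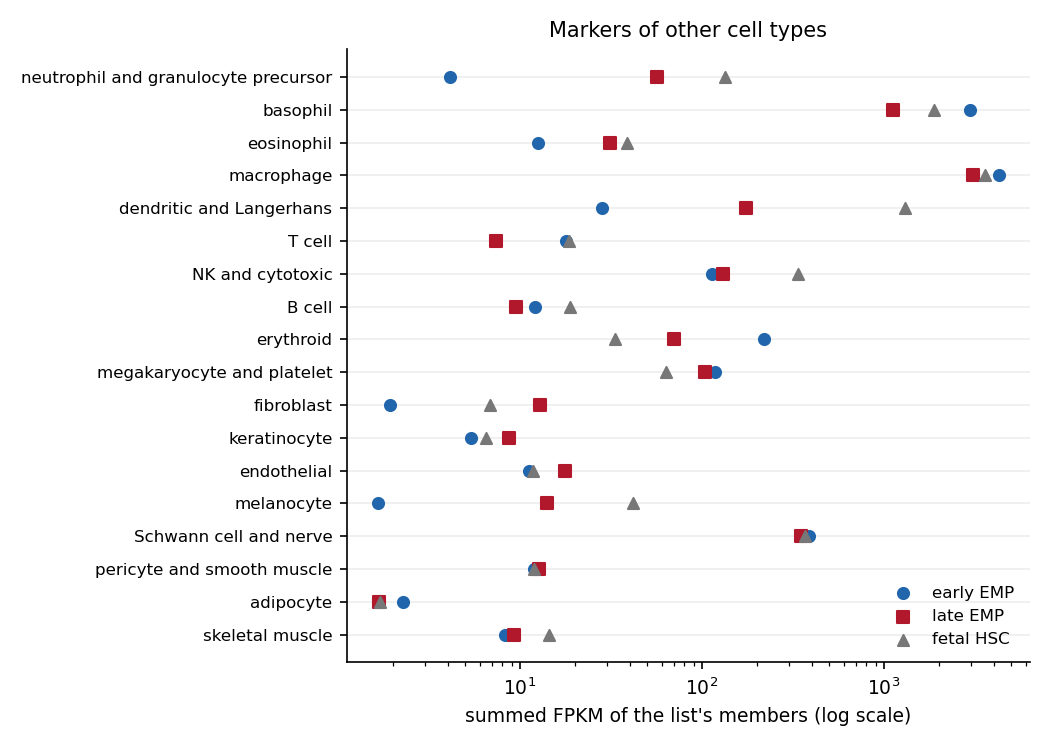
Summed FPKM of marker lists for 18 other cell types on a log x axis, with circles for early EMP, squares for late EMP and triangles for fetal HSC, 1 library each. Granulocyte precursor (4.14 and 56.9), dendritic and Langerhans (28.2 and 175), fibroblast (1.94 and 12.9) and melanocyte (1.66 and 14.2) sums are larger in late than in early EMP, and the erythroid sum is smaller (218 and 70.5). Most of the dendritic and Langerhans sum comes from Cd74, H2-Ab1 and H2-Aa.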

How the data were processed

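RNA was obtained with TRIzol from sorted skin mast cells and read on an Illumina HiSeq at the Beijing Genomics Institute, as the labels' protocols state. Per the file headers, the authors deposited FPKM values, with 2 decimals, in 1 table for 3 libraries. Among the tools and builds in the submitters' processing notes are RSEM, Bowtie2, GRCm38 and mm10, without a role for each. The column used for early EMP carries a control heading, and its link to that library rests on the label's description. No source gives the depth. The estimate in the report comes from the spacing of low FPKM values, of which 76%, 77.8% and 72.9% were at most 0.15 away from a whole fragment count (30% would by chance for a spacing not fitted to them).

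A pseudocount of 1 FPKM and a minimum of 1 FPKM in 1 of the 2 libraries were used. Names, coordinates and promoters came from RefSeq tables of GRCm38.p6, to which 11160 of the 11181 genes matched; 1 symbol occurs in 2 rows. Each of 73 gene lists is described by its counts and median, with older names matched through RefSeq. The members, lists and motifs were chosen with earlier results of these data known. The tryptase pattern was narrowed after 2 sulfotransferases had been seen in it. The calls were tried on a copy of the early EMP values with some genes changed by exactly 4-fold. The copy holds no noise, so it checks the arithmetic of the calls only. Python 3.11.15, numpy 2.4.6, pandas 2.3.3 and matplotlib 3.10.9 were used.

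Genes were named by a rule. It takes the 20 highest and 20 lowest genes that reach 10 FPKM in a library and are not at 0 in either, predicted genes left out. It adds, for each direction, up to 6 genes at 0 in 1 library that reach 5 FPKM in the other and the 10 largest FPKM differences. From each list it takes the 2 most abundant members, the 4 most different that reach 5 FPKM, and members printed to describe the list. Csf1r, Runx1, Kit and 5 sex-linked genes are added, and not every gene allowed is named. The alternative settings changed the pseudocount (0.1 or 5 FPKM), the filter (none, or 5 FPKM) or the scaling (equal library totals, median of ratios, or totals without the 50 most abundant genes). A filter at 1 FPKM in both libraries was added after the data were seen.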

Additional observations from a re-analysis of the deposited data

How the results depend on the processing

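Against 870 genes higher and 489 lower, a pseudocount of 0.1 FPKM gave 1318 and 907, a pseudocount of 5 FPKM 200 and 89, a filter at 5 FPKM 428 and 222, and the added filter at 1 FPKM in both libraries 431 and 222. No filter and the 3 rescalings gave 783 to 1122 higher and 489 to 603 lower. The median of all genes lay between 0.00 and 0.11 under every setting. Higher genes made up 64% of the calls and 58.9% to 69.2% under the alternatives. The T cell marker median, over 2 genes, turned from -1.27 to 1.32 with the filter in both libraries, which leaves Cd3g only. The kinetochore median was 0.46 with a pseudocount of 5 FPKM and 0.81 with that filter, and the spindle median 0.59 with a pseudocount of 5 FPKM. The granzyme and mast cell protease median changed sign, to -0.02, -0.01 and -0.07, with median-of-ratios scaling, rescaling without the 50 most abundant genes and the filter in both libraries. Of 113 genes past 2-fold among 145 checked, which include the kept genes named above, 42 lost it under some setting and none changed direction. A pseudocount of 5 FPKM took 40, most of them low, such as Mki67 (0.82), Smc2 (0.93), Esco2 (0.81), Foxm1 (0.61), Chek1 (0.67), Areg (0.97) and Kcnn4 (0.95). Median-of-ratios scaling took 5, among them Ccnd3 (0.99) and Psat1 (0.95), and rescaling without the 50 most abundant genes 4. No paired analysis was possible because each group has 1 library. The depth, implied at 15.4 to 17.4 M fragments, limits what can be read from genes near 1 FPKM, and the spread between animals is unknown.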

Other observations

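Several neighbouring genes on a chromosome stood on the same side of the comparison. Among 26 runs of at least 3 adjacent kept genes past 2-fold in 1 direction, 6 were of Hist1 histone genes on chromosome 13. Of the 431 genes kept on that chromosome 66 (15.3%) were higher, and without the 29 Hist1 genes 43 of 402 (10.7%). Other runs held chemokine receptors (Cxcr6, Ccr1 and Ccr2), the chemokines Cxcl1 and Cxcl2 with Areg, and the nucleotide and succinate receptors P2ry13, P2ry12 and Sucnr1. On the lower side, Ccl7, Ccl12 and Ccl8 formed a run, as did the acute phase genes Saa3, Saa1 and Saa2, with Saa1 at 3.79 FPKM in early EMP and 0.84 in late EMP. Several members of these runs were low in late EMP, such as P2ry12 at 1.12 FPKM and Cxcl1 at 1.42 FPKM, while Cxcr6 was at 23.1 FPKM.

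A large single value can belong to 1 of 2 near-identical copies and change little as a sum. Atp6v0c-ps2 was at 0.45 FPKM in early EMP and 48.3 in late EMP, while its sum with Atp6v0c was 254 and 252 FPKM. The Ctla2a and Ctla2b sum differed, at 11.03 FPKM in early EMP and 79.41 in late EMP, and so did the predicted lncRNA A530099J19Rik at 234.5 and 862.5 FPKM. Ndufs5, a subunit of respiratory complex I, was listed at 0 in early EMP and at 37.5 FPKM in late EMP, and the pseudogene BC002163 at 85.0 FPKM in early EMP and 0 in late EMP; both were read after their values were seen.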
